A study of Mus musculus with 185 samples.

Results

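Matricellular proteins and fibronectin were followed through single cells of the mouse heart as 10 genes, Postn, Tgfbi, Tnc, Fn1, Sparc, Thbs1, Thbs2, Spp1, Cthrc1 and Fstl1, of the 17171 genes in the deposited table. The genes were chosen by name as secreted adhesion-modulating proteins of the matrix together with fibronectin, and all 10 are listed and were above 5 TPM in at least 1 cell. The question was which of them are found in cells of the periostin lineage only and which also in resident cells. Non-myocyte cells of infarcted and uninjured hearts were sorted, captured on the Fluidigm C1 system and sequenced cell by cell, which gave 185 cells in 9 label classes and 4 captures. Values are log2(TPM+1), where TPM is a transcript abundance scaled for gene length and to the same total in each cell.

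Matricellular proteins are secreted into the extracellular matrix but bind cells, collagen and growth factors rather than bearing load themselves. Most are low in healthy adult tissue and are made again during wound healing, where they regulate adhesion, migration and collagen assembly. Fibronectin is the adhesive scaffold of the early wound matrix, on which periostin, tenascin C and thrombospondins are laid down and to which cells attach through integrins. In the heart these proteins belong to the matrix that fibroblasts lay down in a healing infarct.

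All mice were on a C57BL/6 (backcross N=6) background by the labels and about 5 months old. The study used Postn MCM/+; R26-eGFP and Tcf21 MCM/+; R26-eGFP mice, in which a tamoxifen-dependent Cre (MerCreMer) under the Postn or the Tcf21 locus switches on a Rosa26 eGFP reporter for good in cells that use the locus while tamoxifen is given in the chow. MerCreMer was placed at the start codon in exon 1 of Postn, so 1 Postn allele is replaced in Postn MCM/+ mice and Postn mRNA comes from the other. Infarcts were made by permanent ligation of the left coronary artery, and infarct cells were taken about a week later per the study's legends. All classes were sorted without CD31- and CD45-bearing cells, and eGFP was read under the microscope in each captured cell. From infarcted hearts there were 27 activated Postn-traced cells (eGFP switched on at Rosa26 by Cre from the Postn locus), 24 activated Postn-negative cells, 28 activated Postn-positive cells not labelled as traced, 44 activated Tcf21-traced cells and, taken from scar tissue, 29 cells without tracing. From uninjured hearts there were 17 resident Tcf21-traced cells, 12 resident Postn-negative cells, 3 resident Tcf21-positive cells labelled Postn-positive and 1 further resident cell labelled Postn-positive. The Tcf21 labels join traced with Tcf21-expressing cells. The labels state neither the mouse line behind each resident and scar cell nor any tamoxifen given to uninjured hearts. For the resident Postn-negative cells, 1 legend of the study names uninjured hearts and another the remote region of the heart, and they are called resident here.

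The 33 resident cells make up 1 capture. A capture of 57 cells held the Postn-traced cells, the activated Postn-negative cells and 6 untraced Postn-positive cells. In a capture of 63 cells were those labelled activated Tcf21-traced with 19 untraced Postn-positive cells, and the last, of 32 cells, held the scar cells and 3 untraced Postn-positive cells. Class and capture therefore cannot be told apart between captures. The study names 3 mice in each group, but no label ties a cell to a mouse. Each class is therefore 1 sample, no test was run, and every SD is taken over cells. Labels of Postn-positive and Postn-negative cells follow Postn mRNA, so the Postn differences between them describe the labels.

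Read depth per cell is not in the table, and the number of genes above 5 TPM was used beside the results. Its median was 3643 in Postn-traced cells against 2342 in activated Postn-negative cells, 2264 in resident Tcf21-traced cells and 2091.5 in resident Postn-negative cells. It was 3134 in activated Tcf21-traced cells and 3177 in scar cells, of which 5 had fewer than 300 genes. Gapdh, a glycolytic enzyme gene that every cell uses, was listed at 0 in 9 of 185 cells and in 4 of those with at least 300 genes, so a 0 is given only as listed at 0. At least 3 of 6 fibroblast markers were above 5 TPM in 180 of the 185 cells, and Dcn (decorin) was the most abundant marker in 10 of the 11 groups of cells of 1 class and 1 capture. The same held for 0 cells with 5 endothelial markers, 1 with 6 myeloid, 3 with 6 pericyte, 2 with 6 cardiomyocyte and 1 with 5 epicardial markers. At least 3 of 6 smooth muscle markers were found in 22 cells, and their summed TPM averaged 753 in Postn-traced cells (Tagln most abundant) and 106 in activated Postn-negative cells (Smtn most abundant, Myh11 and Cnn1 at 0). That sum was 465 in activated Tcf21-traced, 216 in scar, 103 in resident Tcf21-traced and 49.5 in resident Postn-negative cells. In untraced Postn-positive cells it was 1205 in the capture of the Tcf21-traced cells and 77.2 in that of the Postn-traced cells (Tagln most abundant in both, Myh11 and Cnn1 at 0). Gene number and smooth muscle markers thus run with several of the member genes below, though not with Tgfbi, and their part in the results was not tested.

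Detection above 5 TPM sorted the 10 genes, by the Postn-traced cells and the 2 larger resident classes alone, into those of traced but not resident cells (at least 50% of traced cells and under 10% of each resident class), those shared (at least 50% of all these classes) and those between. Tnc alone fell in the first group, into which 0.21% of the 15733 genes above 5 TPM in any cell were sorted. Sparc and Fstl1 were shared with resident cells, as were 5.69% of all genes. Postn, Fn1, Thbs1, Thbs2 and Cthrc1 were between, since each was in most traced cells and in more than 10% of at least 1 resident class. Of the 2367 genes in at least 50% of traced cells, 60.8% were between and 37.8% shared, against 5 and 2 of these 8 members, so a place between is not particular to them. Tgfbi and Spp1 were in fewer than 50% of the traced cells. Tnc was also above 5 TPM in 16 of 28 untraced Postn-positive, 8 of 44 activated Tcf21-traced and 6 of 29 scar cells, so it sets traced cells apart from resident cells and not from all others.

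**Figure D1:**
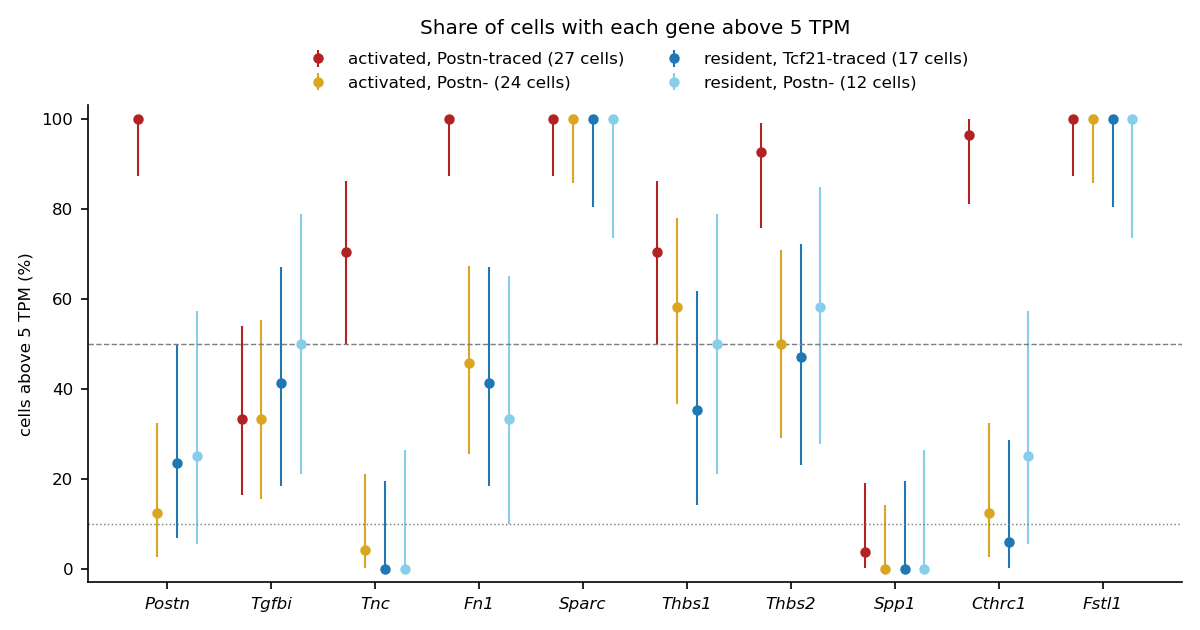
Percent of cells with each gene above 5 TPM (vertical axis) in 4 classes, as points, with bars for the exact 95% interval of Clopper and Pearson, which covers counting error alone; the dashed line marks 50% and the dotted line 10%. Tnc stands at 70.4% of Postn-traced cells and 0% of both resident classes, while Sparc and Fstl1 are in every cell.

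Where the threshold lies decides the group of several genes. At 50 TPM, Postn and Cthrc1 joined Tnc in the first group, which made 3 genes, beside 0.0763% of all genes. For Postn this follows from the labels, since the 4 resident cells labelled Postn-positive, at 6.08, 7.10, 12.03 and 13.13, are in neither resident class. At 1 TPM, 6 genes were shared, beside 7.58% of all genes, with Postn, Fn1, Thbs1 and Thbs2 beside Sparc and Fstl1. When at least 75% of the traced cells were asked for, none of the 10 genes was in that group, since Tnc was in 70.4%. In cells with 2000 to 3000 genes, a range chosen after seeing the data, Tnc was in 2 of 5 traced cells and the group was again empty. Thbs1 became shared in those cells, which made 3 shared genes, beside 4.67% of all genes. With at least 2000 genes Thbs1 was also shared, again making 3, and the share of all genes was not taken there.

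Postn encodes periostin, which binds integrins and promotes collagen cross-linking. In the Postn-traced cells it ran from 9.60 over a median of 11.69 to 14.08. In the untraced Postn-positive cells of the infarct it ran from 6.54 over 11.32 to 13.39, and in the scar cells from 0.00 over 10.87 to 13.72. Below the lowest traced cell lay 4 of the 28 untraced Postn-positive cells and 11 of the 29 scar cells, 5 of the latter at or below 5 TPM. The activated Tcf21-traced cells ran from 0.00 over 11.39 to 13.66, with 39 of 44 cells above 5 TPM. Resident Tcf21-traced cells ended at 3.55 and resident Postn-negative cells at 2.87, with 4 of 17 and 3 of 12 cells above 5 TPM, so the low Postn of resident cells was near the detection minimum. Of the 5 scar cells with fewer than 300 genes, 4 held Postn, between 11.10 and 12.11, and without these 5 it was above 5 TPM in 20 of 24.

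Cthrc1 encodes a secreted glycoprotein with a short collagen repeat, made by activated fibroblasts in injured vessels and heart. It ran from 1.85 over a median of 10.85 to 13.15 in Postn-traced cells, and 26 of 27 were above 5 TPM (96.3%, interval 81% to 99.9%). In activated Postn-negative cells 3 of 24 were above it, in resident Tcf21-traced cells 1 of 17 (5.88%, interval 0.149% to 28.7%) and in resident Postn-negative cells 3 of 12 (25%, interval 5.49% to 57.2%). The few resident cells that held Cthrc1 could hold much of it, as the highest reached 10.07 and 10.54, within the range of the traced cells. In the activated Tcf21-traced cells Cthrc1 ran from 0.00 over 9.24 to 12.82 and was listed at 0 in 11 of 44. Scar cells had it above 5 TPM in 17 of 29, with a median of 6.95.

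Tnc encodes tenascin C, a hexameric glycoprotein of wound edges that loosens the hold of cells on fibronectin. In Postn-traced cells it ran from 0.00 over 5.92 to 9.54 and was above 5 TPM in 19 of 27 (70.4%, interval 49.8% to 86.2%). None of the 33 resident cells was above 5 TPM, and the highest value among them was 0.66. By counting error alone this allows a detected share of up to 10.6%, and missed transcripts are not covered. Among the 24 activated Postn-negative cells 1 had Tnc above 5 TPM, at 3.72. That cell also had 4 of 5 epicardial markers, 4881 genes, the most of its class, and Fn1 at 9.25, the highest Fn1 of its class. In activated Tcf21-traced cells Tnc was above 5 TPM in 8 of 44 (18.2%, interval 8.19% to 32.7%), and all 8 also had Postn. In the untraced Postn-positive cells of the same capture 12 of 19 had it (63.2%, interval 38.4% to 83.7%).

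Fn1 encodes fibronectin. In Postn-traced cells it ran from 7.09 over 9.64 to 10.77. The resident Postn-negative cells ran from 0.00 over 1.13 to 6.09, so these classes did not overlap. In resident Tcf21-traced cells Fn1 ran from 0.00 over 1.98 to 8.71, with 7 of 17 above 5 TPM (41.2%, interval 18.4% to 67.1%). Fibronectin mRNA was therefore present in part of the resident cells, and 22 of 27 traced cells lay above the highest of the Tcf21-traced ones. In activated Postn-negative cells it ran from 0.00 over 2.42 to 9.25, with 11 of 24 above 5 TPM (45.8%, interval 25.6% to 67.2%). In activated Tcf21-traced cells the range was 0.00 over 8.66 to 10.73, and 37 of 44 were above 5 TPM. Scar cells showed Fn1 in 24 of 29, and the 5 others, all listed at 0, were those with fewer than 300 genes. Without these 5 cells all 24 had Fn1, from 6.29 over 8.53 to 11.02, and the class mean moved from 7.03 to 8.49.

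**Figure D2:**
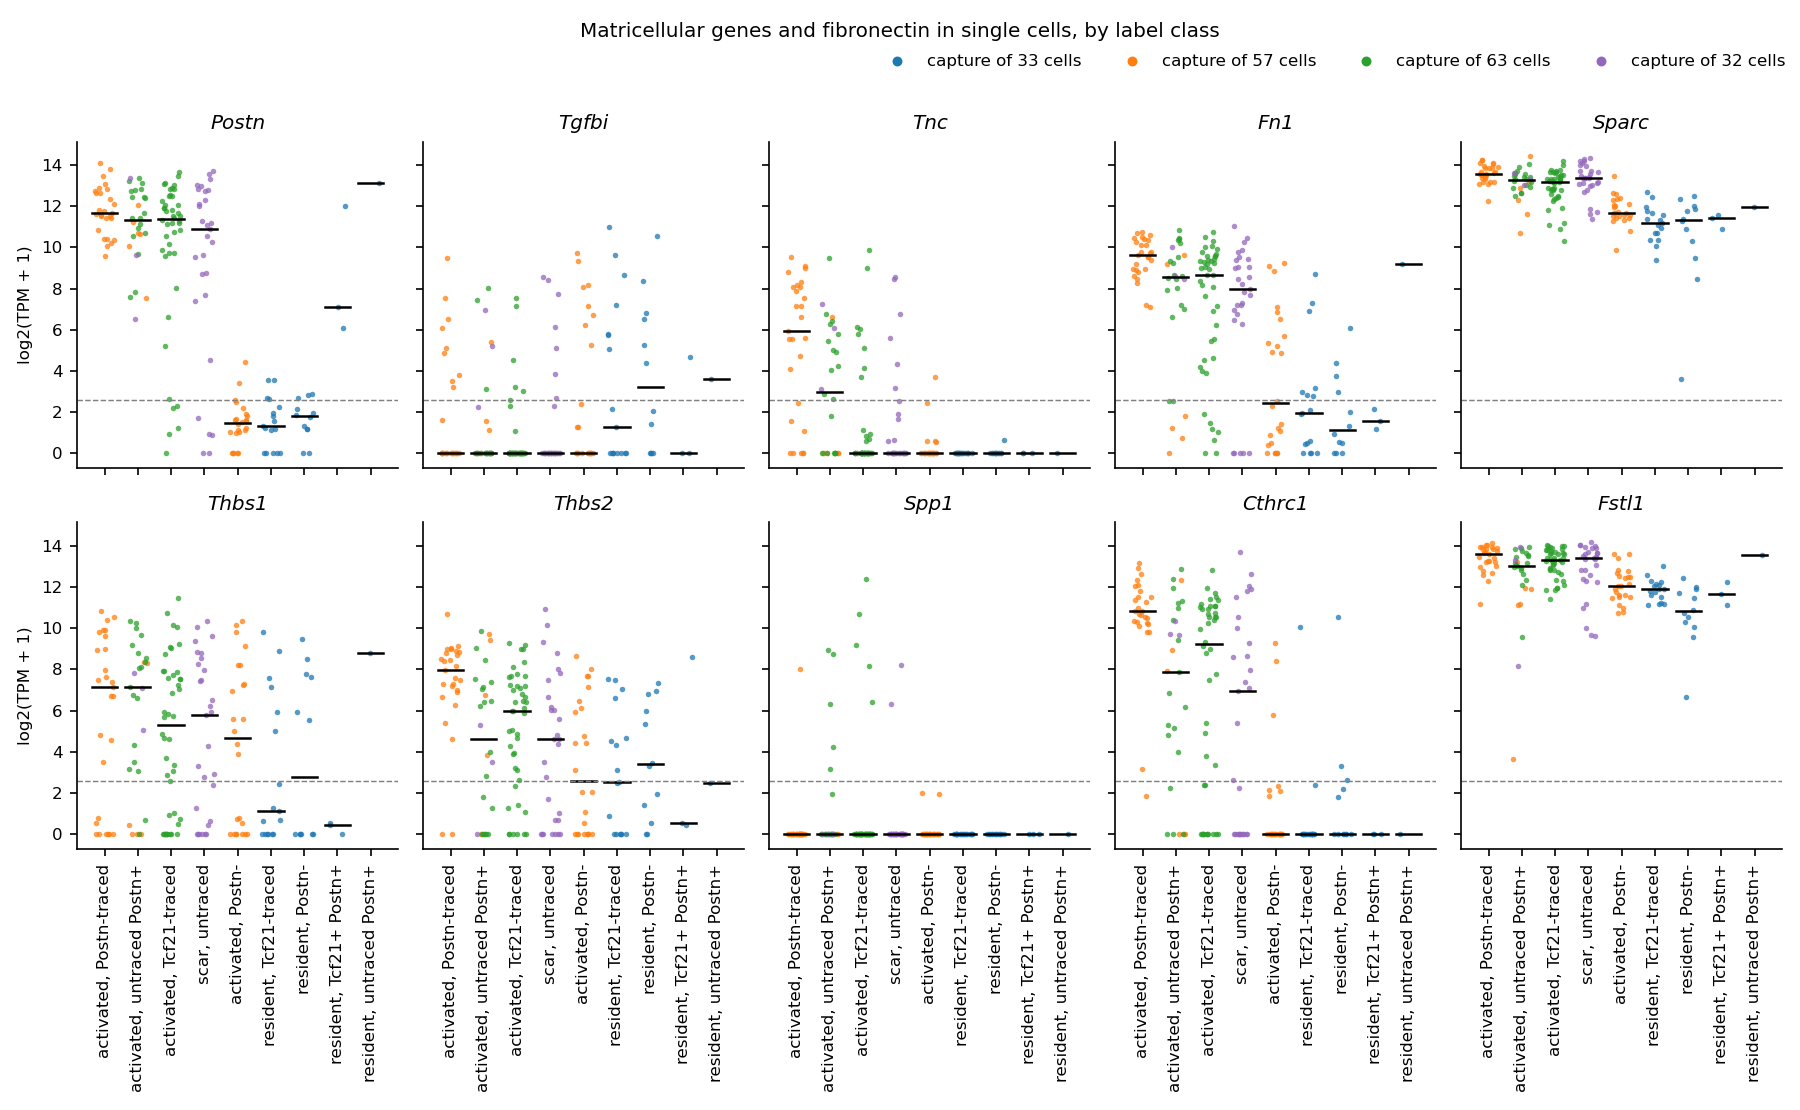
Each point is 1 cell, placed by label class (horizontal axis) and log2(TPM+1) (vertical axis), coloured by capture; black bars are class medians and the dashed line is the minimum of 5 TPM. Postn, Fn1 and Cthrc1 are high in most cells of the activated classes other than the Postn-negative one, Tnc leaves 0 in part of the activated cells, and Sparc and Fstl1 are high in all classes.

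Sequences before the start sites are shown for 3 of the genes that were higher in Postn-traced than in activated Postn-negative cells. Over the 27 traced cells, Pearson correlations were 0.31 for Postn and Tnc, 0.06 for Postn and Thbs2 and -0.28 for Tnc and Thbs2. RefSeq windows on GRCm38.p6 (mm10) were matched for 7 of the 10 genes, and Fn1, Thbs1 and Cthrc1 were not matched. The 250 bases run 5′ to 3′ on the strand of the gene and end at the RefSeq start. They are chr3:54360857-54361106 (plus strand) for Postn, chr4:64047016-64047265 (minus strand) for Tnc and chr17:14694263-14694512 (minus strand) for Thbs2. Each lies upstream of its gene in GENCODE, where Postn spans chr3:54361109-54391037, Tnc chr4:63959785-64047015 and Thbs2 chr17:14665500-14694235. Capitals mark matches to TATAAA or CCAAT on either strand (TTTATA or ATTGG on the strand shown).
Postn: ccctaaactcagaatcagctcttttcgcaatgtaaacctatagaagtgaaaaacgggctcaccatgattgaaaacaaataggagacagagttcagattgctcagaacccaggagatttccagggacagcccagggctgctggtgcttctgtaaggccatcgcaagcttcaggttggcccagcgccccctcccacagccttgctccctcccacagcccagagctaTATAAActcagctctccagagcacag
Tnc: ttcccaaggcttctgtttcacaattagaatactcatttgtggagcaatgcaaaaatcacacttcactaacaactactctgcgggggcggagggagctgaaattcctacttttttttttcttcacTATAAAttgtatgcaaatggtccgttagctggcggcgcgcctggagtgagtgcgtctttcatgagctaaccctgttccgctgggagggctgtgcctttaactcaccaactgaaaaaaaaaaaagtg
Thbs2: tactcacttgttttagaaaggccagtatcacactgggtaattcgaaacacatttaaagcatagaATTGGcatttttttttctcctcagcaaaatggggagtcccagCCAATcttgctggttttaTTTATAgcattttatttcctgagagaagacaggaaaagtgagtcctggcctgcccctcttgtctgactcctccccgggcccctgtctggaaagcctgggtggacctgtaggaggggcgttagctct
A TATAAA was found in 3 of the 7 member windows and in 12.4% of all 32851 windows. In Postn its first letter lies 26 bases before the start, the usual place of a TATA box, and in Tnc and Thbs2 the first letter lies 126 bases before it. CCAAT was found in Thbs2 only, 186 and 144 bases before the start, and in 33.8% of all windows. The AP-1 letters TGANTCA (6.75% of all windows) and the TEAD letters GGAATG (12.6%) were in none of the 7, on either strand. Tgfbi, Sparc, Spp1 and Fstl1 had no match to any of these 4 motifs. Unlike the 3 windows shown, those of Sparc and Spp1 lie inside the span of the gene in GENCODE. Those of Tgfbi and Fstl1 overlap its first bases. The missing letters therefore describe these windows alone. A match is a description of the letters and not of a binding site.

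Thbs2 and Thbs1 encode thrombospondins 2 and 1, which curb vessel growth, and thrombospondin 1 also releases latent TGF-beta. Thbs2 ran from 0.00 over 7.95 to 10.71 in Postn-traced cells, with 25 of 27 above 5 TPM (92.6%, interval 75.7% to 99.1%). It was above 5 TPM in 12 of 24 activated Postn-negative, 8 of 17 resident Tcf21-traced and 7 of 12 resident Postn-negative cells, where medians were 2.59, 2.55 and 3.39. It was in 34 of 44 activated Tcf21-traced, 18 of 29 scar and 18 of 28 untraced Postn-positive cells. Among cells with 2000 to 3000 genes, Thbs2 was in 3 of 5 traced, 10 of 20 activated Postn-negative, 4 of 11 resident Tcf21-traced and 6 of 9 resident Postn-negative ones. Thbs1 ran from 0.00 over 7.16 to 10.85 in Postn-traced cells, with 19 of 27 above 5 TPM (70.4%). It was above 5 TPM in 14 of 24 activated Postn-negative (58.3%, interval 36.6% to 77.9%), 6 of 12 resident Postn-negative and 6 of 17 resident Tcf21-traced cells (35.3%, interval 14.2% to 61.7%). The ranges of Thbs1 overlapped in all these classes, and resident cells reached 9.84. In cells with 2000 to 3000 genes the Thbs1 difference of traced cells changed sign, to -0.69 against activated Postn-negative and -1.36 against resident Postn-negative cells, while with medians it was 2.46 and 4.38. In the capture of the activated Tcf21-traced cells it was in 29 of 44 of these and in 17 of the 19 untraced Postn-positive cells.

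Sparc encodes osteonectin, a collagen-binding glycoprotein needed to process fibrillar collagen, and was above 5 TPM in all 185 cells. Its mean was 13.58 ± 0.44 (SD between cells, n = 27) in Postn-traced cells, 11.79 ± 0.69 (n = 24) in activated Postn-negative cells and 11.15 ± 0.85 (n = 17) in resident Tcf21-traced cells. The difference of 1.79 within the capture is larger than the SD of either class, and 18 of 27 traced cells lay above the highest Postn-negative cell. In activated Tcf21-traced cells Sparc was 12.92 ± 0.84 (n = 44) and in scar cells 13.26 ± 0.80 (n = 29). In resident Postn-negative cells it was 10.49 ± 2.47 (n = 12), where the lowest cell, at 3.61, was the 1 cell with 5 of 6 myeloid markers. Leaving out the cells with 3 or more markers of another cell type, a choice made after seeing the data, the Sparc difference between Postn-traced and resident Postn-negative cells went from 3.09 to 2.46.

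Fstl1 encodes a secreted follistatin-like glycoprotein of the SPARC family, and it too was above 5 TPM in all 185 cells. Its mean was 13.40 ± 0.67 (n = 27) in Postn-traced, 12.09 ± 0.82 (n = 24) in activated Postn-negative and 11.87 ± 0.53 (n = 17) in resident Tcf21-traced cells. In activated Tcf21-traced cells it was 13.18 ± 0.69 (n = 44), within the SD of the Postn-traced cells. Resident Postn-negative cells were lower, at 10.70 ± 1.53 (n = 12). Fstl1 thus differed by 1.30 within the capture of the Postn-traced cells, more than the SD of either class. In cells with 2000 to 3000 genes that difference was 0.46, below both SDs, and over the 27 traced cells Fstl1 and the number of genes above 5 TPM had a Pearson correlation of 0.61. Of the shared pair neither gene is an on-off marker, as the classes differ in level alone.

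Tgfbi encodes TGFBI, a fasciclin-domain protein built like periostin that TGF-beta induces in many cells. In Postn-traced cells its median was 0.00 and its highest value 9.48, with 9 of 27 above 5 TPM (33.3%, interval 16.5% to 54%). In the same capture the activated Postn-negative cells had Tgfbi in 8 of 24, also 33.3%, with a median of 0.00. Resident Postn-negative cells had it in 6 of 12 (50%, interval 21.1% to 78.9%) and resident Tcf21-traced cells in 7 of 17, up to 10.56 and 10.98. The lowest share was that of the activated Tcf21-traced cells, with 6 of 44 (13.6%, interval 5.17% to 27.4%) and a highest value of 7.54. Over all classes Tgfbi was above 5 TPM in 15 of 33 resident cells (45.5%, interval 28.1% to 63.6%) and in 36 of 152 infarct cells (23.7%, interval 17.2% to 31.3%). In cells with 2000 to 3000 genes Tgfbi was in 7 of 11 resident Tcf21-traced, 0 of 5 Postn-traced and 1 of 17 activated Tcf21-traced cells.

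Spp1 encodes osteopontin, an integrin ligand made in quantity by macrophages of injured hearts. It was above 5 TPM in 13 of 152 infarct cells (8.55%, interval 4.63% to 14.2%) and in 0 of 33 resident cells, all listed at 0. By counting error alone this allows a detected share of up to 10.6%, and missed transcripts are not covered. Those 13 cells held between 3.15 and 12.39. By class they were 5 activated Tcf21-traced, 5 untraced Postn-positive, 2 scar and 1 Postn-traced cell, and the first 10 of these share a capture. Ptprc, the gene of CD45, was above 5 TPM in none of the 13, and 11 had none of 6 myeloid markers above it. Col1a1 was above 5 TPM in all 13 and Postn in 12. Spp1 was thus a feature of few cells, and those cells carried fibroblast genes.

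Within the activated Tcf21-traced cells Fn1 and Cthrc1 went together. Both were above 5 TPM in 30 of 44 cells and neither in 6, with Fn1 alone in 7 and Cthrc1 alone in 1. Over these 44 cells their values had a Pearson correlation of 0.82 and a Spearman correlation of 0.76. Cells with more genes above 5 TPM also had more of both, with correlations of 0.66 for Fn1 and 0.74 for Cthrc1, and the cells share a capture, so depth and level cannot be told apart. Postn and Sparc correlated at 0.78 (Spearman 0.58) there. Among the 27 Postn-traced cells, where 26 had both Fn1 and Cthrc1, the correlation of this pair was 0.24 (Spearman -0.02). Among the 24 scar cells with at least 300 genes it was -0.12 (Spearman -0.08). Tnc and Thbs1 correlated at 0.60 (Spearman 0.55) among the traced cells.

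**Figure D3:**
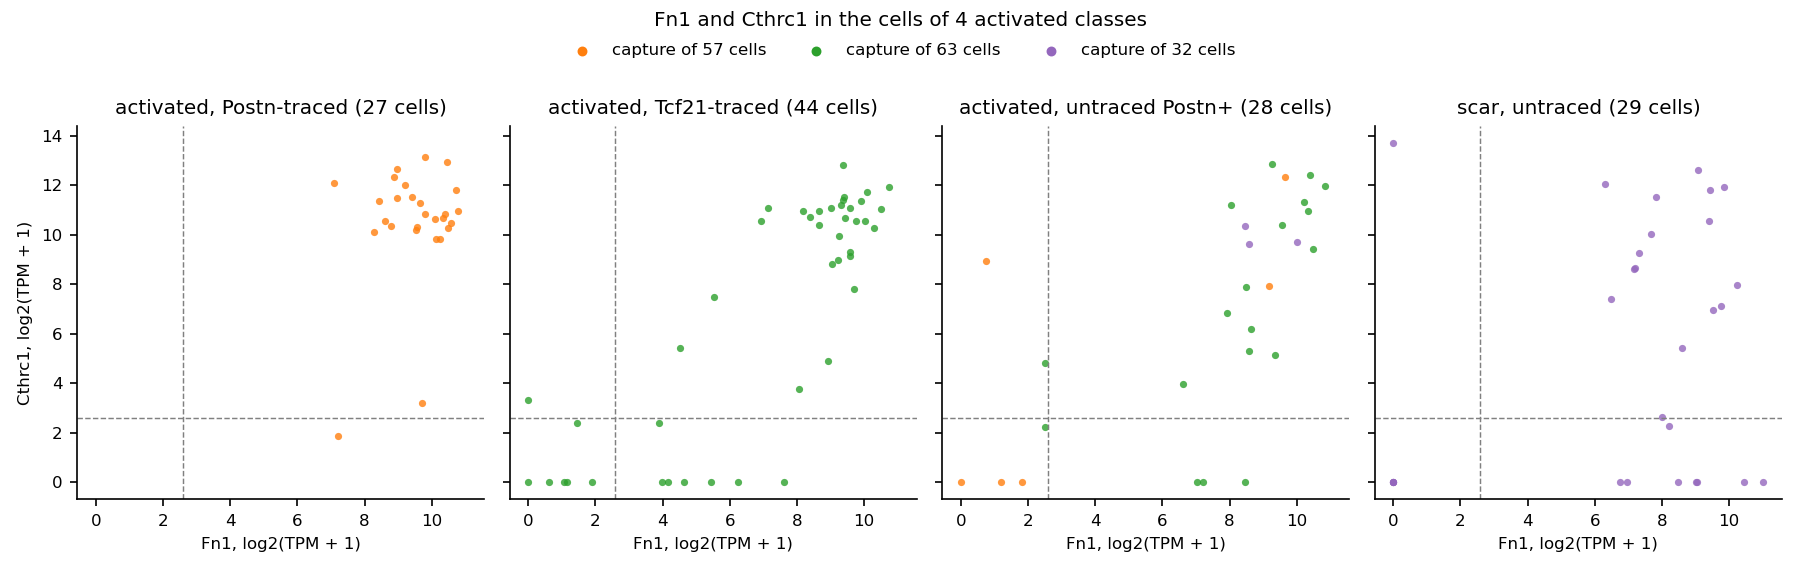
Fn1 (horizontal axis) against Cthrc1 (vertical axis), both in log2(TPM+1), for each cell of 4 classes from infarcted hearts, coloured by capture; dashed lines mark 5 TPM. Both genes are above 5 TPM in 26 of 27 Postn-traced cells and in 30 of 44 Tcf21-traced cells, and both are below it in 6 of the latter.

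Postn, Fn1, Cthrc1 and Tnc were all above 5 TPM in 19 of 27 Postn-traced cells. In the same capture 1 of 6 untraced Postn-positive cells had all 4. Such cells had them in 10 of 19 in the capture with the activated Tcf21-traced cells and in 3 of 3 in that of the scar cells. Among the activated Tcf21-traced cells 7 of 44 had all 4. In scar cells 3 of 29 had all 4, in activated Postn-negative and resident cells none. Postn, 1 of the 4, also set the Postn-positive and Postn-negative labels. These counts, and the number of members in a cell given next, therefore follow in part from the labels. Of the 10 genes a median of 8 was above 5 TPM in a Postn-traced cell, 6 in an activated Tcf21-traced or scar cell, and 4 in an activated Postn-negative or resident cell of the Tcf21-traced and Postn-negative classes. The median number of all genes above 5 TPM ran in the same order. It was 3643 in Postn-traced, 3134 and 3177 in activated Tcf21-traced and scar, and 2342, 2264 and 2091.5 in the last 3 classes. Its part in the member counts was not tested.

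Untraced Postn-positive cells allow a look at lineage labelling within the capture of the traced cells, a comparison added after the values were seen. In 6 such cells Fn1 was 0.00, 1.21, 9.18, 0.75, 9.64 and 1.83, while Postn in the same cells was 7.54, 10.63, 10.69, 12.07, 11.22 and 10.06. Cthrc1 in these cells was 0.00, 0.00, 7.92, 8.96, 12.33 and 0.00, and Tnc was at 6.62 in 1 of them and at 0.00 in the other 5. So 3 of the 6 had Postn with neither Fn1 nor Cthrc1 above 5 TPM, a state found in 0 of 27 traced cells. The difference of means between traced and untraced cells was 1.44 for Postn, 5.71 for Fn1, 5.64 for Cthrc1 and 4.15 for Tnc. It was also above 2 for Fstl1 (2.88), Thbs1 (2.86) and Thbs2 (2.35), each smaller than the SD between the untraced cells. The share of all genes that far apart was not taken here, so these differences are not shown to be particular to the members. For Fstl1 1 of the 6 cells was at 3.66 and the others between 11.15 and 13.24. These 6 cells had a median of 2234.5 genes above 5 TPM against 3643 in the traced cells, and smooth muscle markers at 77.2 against 753 TPM, and the part of either was not tested. In the other captures the untraced Postn-positive cells were unlike these, with Fn1 in 17 of 19 and in 3 of 3. Those captures held no Postn-traced cells, and the labels do not say which tracer was read there, so the untraced cells may not be alike.

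Between class means in 1 capture, Postn-traced minus activated Postn-negative, 5 of the 10 genes were more than 2 log2 units higher and none was that much lower, where 4.22% of all 15733 genes were that much higher. They were Postn, which is counted although it chose the labels, Cthrc1 (9.18, ranking 2 among all genes), Fn1 (5.98, ranking 9), Tnc (4.93, ranking 16) and Thbs2 (3.97, ranking 45). Each of these differences is larger than the SD of either class. Tnc came to 2.78 and Thbs2 to 2.10 in cells with 2000 to 3000 genes, and with means taken over TPM Cthrc1 came to 5.93, Fn1 to 3.25 and Thbs2 to 2.30. Means over TPM also took Spp1 past 2, at 3.08, with 1 of 27 traced cells above 5 TPM, and medians took Thbs1 to 2.46. The median of the 10 differences, with Postn included, was 2.88, and that of all genes 0.19. Thbs1 differed by 1.39 and Tgfbi by -0.82, both within the SD between cells, but Tgfbi came to -2.86 in cells with 2000 to 3000 genes, past 2 units lower.

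Postn-traced cells against the resident Tcf21-traced cells gave 7 genes more than 2 log2 units higher, the same 5, Tnc included, with Sparc (2.43) and Thbs1 (2.74), beside 5.83% of all genes. Fn1 differed by 7.00, Thbs2 by 4.29 and Cthrc1 by 9.78, each larger than either SD, while the Thbs1 difference was smaller than the SD of 4.08 between traced cells. With means over TPM Fn1 came to 4.29 and Cthrc1 to 5.37, and Thbs2 came to 2.48 and Thbs1 to -0.81 in cells with 2000 to 3000 genes. Sparc no longer passed 2 in those cells (1.83), nor Thbs1 with means over TPM (1.85) or at least 2000 genes (1.28). With medians Thbs1 was higher, at 6.01. Means over TPM brought Spp1 past 2 in place of Thbs1, though Spp1 is listed at 0 in these resident cells. Tgfbi, at -1.40, passed 2 units lower with means over TPM (-2.24), with at least 2000 genes (-3.10) and with 2000 to 3000 (-5.02). Tnc is counted among the 7 although it is listed at 0 in all of these resident cells, and no value is given for it. Against the resident Postn-negative cells 7 genes were also higher, beside 8.15% of all genes, now with Sparc (3.09) and Fstl1 (2.70) and with Thbs1 just short at 1.98. Fn1 differed by 7.61 there. Sparc (1.73), Fstl1 (1.25) and Thbs2 (1.44) no longer passed 2 in cells with 2000 to 3000 genes. Tgfbi, at -1.86, passed 2 units lower in 5 of the 9 alternatives and reached -4.11 in cells with 2000 to 3000 genes. Both comparisons set 1 capture against another and share the traced cells. Postn is counted in both although the resident cells labelled Postn-positive are in neither resident class, so its place follows from the labels.

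Between activated and resident Tcf21-traced cells, 4 genes were more than 2 log2 units higher, Postn (8.51), Cthrc1 (6.21), Fn1 (4.57) and Thbs2 (2.05), beside 4.74% of all genes. Resident Tcf21-positive cells labelled Postn-positive, with Postn at 6.08, 7.10 and 12.03, are a class of their own and are left out here. The activated cells were not split in this way, so the Postn difference follows in part from the labels. Tgfbi was lower, at -2.61, and 0.464% of all genes were that much lower. This Tgfbi difference is smaller than the SD of 3.96 between resident cells, and the alternatives ran from -4.84 in cells with 2000 to 3000 genes to -1.28 with medians in place of means. The Thbs2 difference is also smaller than the SD of 2.94, and it was below 2 with a pseudocount of 5, 1.57 with means over TPM and 1.06 in cells with 2000 to 3000 genes. Means over TPM brought Tnc and Spp1 past 2, both listed at 0 in the resident cells. Fn1 and Cthrc1 exceed the SD of either class, but in cells with 2000 to 3000 genes they came to 2.43 and 3.92, below the SDs of 3.30 and 4.78 between activated cells. Thbs1 was 1.80, Sparc 1.76 and Fstl1 1.32 higher, but Thbs1 came to 0.22 in cells with at least 2000 genes and to -0.09 in those with 2000 to 3000. Thbs1 passed 2 when cells were centred, at 2.25, and reached 4.14 among the alternatives. Tnc in the activated cells reached 9.87 against 0 throughout the resident ones.

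Activated Postn-negative minus resident Postn-negative cells gave no gene beyond 2 log2 units in either direction, where 2.89% of all genes were beyond it. The largest differences were those of Fn1 (1.63), Fstl1 (1.40) and Sparc (1.29), none of them larger than the SD of both classes. Sparc went down to 0.34 among the alternatives, and the resident cell with myeloid markers held it at 3.61. With means taken over TPM before the logarithm Fn1 passed 2, and with medians Tgfbi came to -3.21. Resident Tcf21-traced against resident Postn-negative cells, in 1 capture, also gave none, beside 2.61% of all genes. There Fstl1 differed by 1.17 and Cthrc1 by -0.98. Cthrc1 came to -2.08 in cells with 2000 to 3000 genes and to 0.00 with medians. Single cells weigh on it, 1 Postn-negative cell at 10.54 and 1 Tcf21-traced cell at 10.07. The latter had 1966 genes and is not in that range.

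Activated Tcf21-traced cells were set against untraced Postn-positive cells of the same capture, and Tnc was lower by more than 2 log2 units, at -2.23, beside 0.362% of all genes. That difference is smaller than the SD of 2.92 between the untraced cells, where smooth muscle markers summed to 1205 TPM against 465, and their part was not tested. The untraced cells were labelled by Postn mRNA, with 19 of 19 above 5 TPM, and the Tcf21-traced cells were not, with 39 of 44. Tracing and selection on Postn therefore cannot be told apart here. The Tnc difference was -0.66 with means over TPM, -1.72 in cells with 2000 to 3000 genes and -4.03 with medians. Thbs1 (-1.89) and Postn (-1.52) came next, and Cthrc1 (-0.05) and Fstl1 (0.15) were level. Against the Postn-traced cells of the other capture, 4 genes were lower in the Tcf21-traced cells, beside 0.642% of all genes. They were Tnc (-4.03), Cthrc1 (-3.56), Fn1 (-2.43) and Thbs2 (-2.24), of which the Tnc difference alone is larger than either SD. Means over TPM gave -2.06 for Tnc, -1.16 for Cthrc1, -0.93 for Fn1 and -1.38 for Thbs2. Sparc (-0.66) and Fstl1 (-0.22) differed less. Postn was above 5 TPM in all 27 Postn-traced cells, so selection on Postn also enters this comparison.

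**Figure D4:**
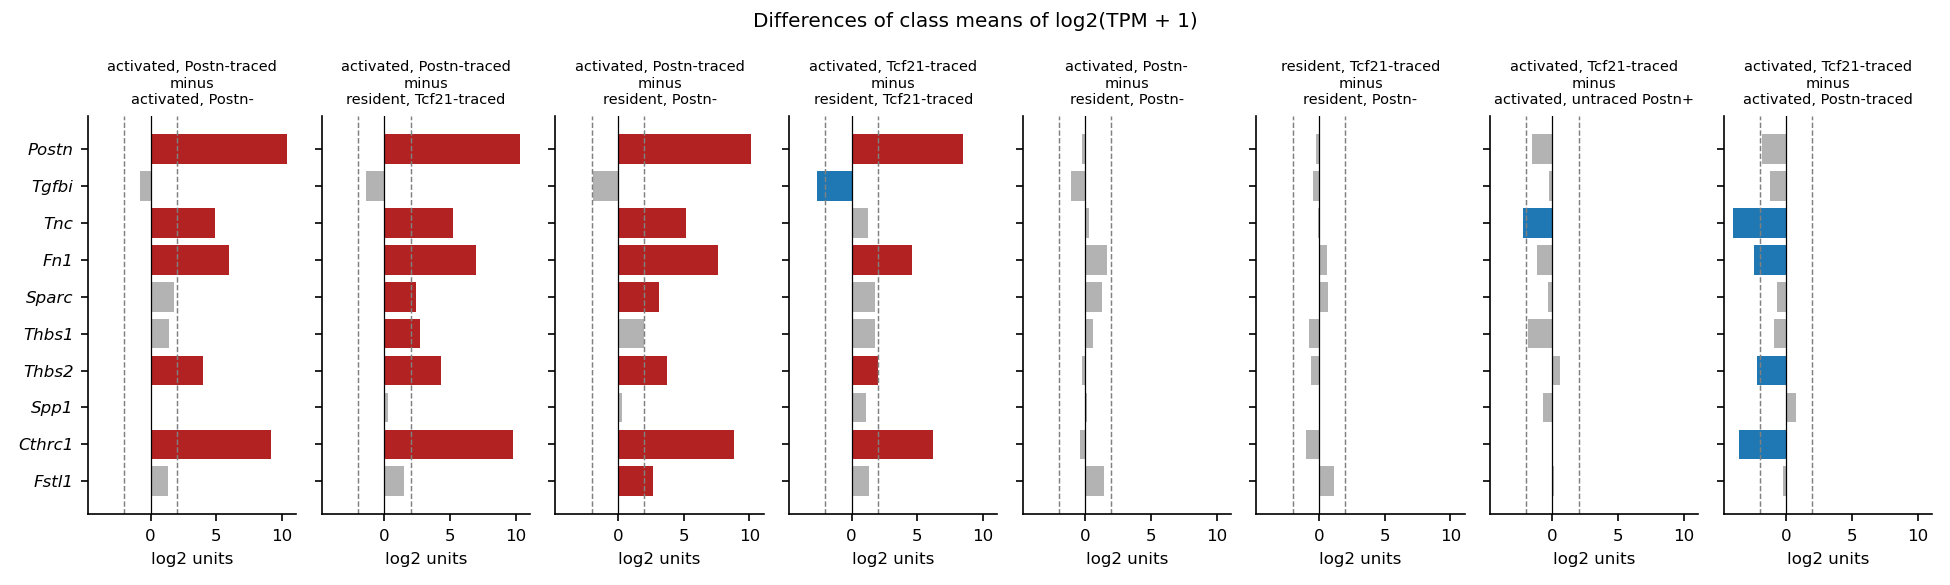
Differences of class means in log2 units (horizontal axis) for the 10 genes (vertical axis) in 8 comparisons named above the panels; dashed lines mark 2 units either way, red bars are above and blue bars below. Postn, Tnc, Fn1, Thbs2 and Cthrc1 pass 2 in each of the first 3 panels, where Postn itself set the labels, and none of the 10 passes in the fifth and sixth. In the second panel Tnc is set against a class in which it is at 0 throughout.

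Centring each cell on the median of its genes above 5 TPM moved the median difference of all genes by 0.52 for Postn-traced against activated Postn-negative cells. The shift was 0.50 and 0.56 against the resident Tcf21-traced and Postn-negative cells, 0.45 for the Tcf21-traced cells after and without infarction, and -0.26 for Tcf21-traced against untraced Postn-positive cells. Centred, 6, 8 and 8 of the 10 genes were higher by more than 2 in Postn-traced cells in place of 5, 7 and 7, beside 8.75%, 10.8% and 14.6% of all genes. Postn, which set the labels, is in each of these counts. In activated Tcf21-traced cells 6 were higher in place of 4, beside 8.42%. Relative to the median of all genes, which takes the shift out, the counts were 5, 7 and 7, and 3 for the Tcf21-traced cells, as Thbs2 came to 1.89. Tgfbi then passed 2 units lower in Postn-traced against resident Postn-negative cells, at -2.12. Against untraced Postn-positive cells, calls over all genes were 27 higher and 57 lower on the deposited scale (32.1% higher) and 9 and 115 when centred (7.26%).

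By level in Postn-traced cells, on the length-scaled TPM, the order of means was Sparc, Fstl1, Postn (11.81), Cthrc1 (10.51), Fn1 (9.48), Thbs2 (7.31), Thbs1 (5.72), Tnc (5.26), Tgfbi (1.92) and Spp1 (0.30). Sparc and Fstl1 lie within their SD of each other, as do Thbs2, Thbs1 and Tnc by the SD of 4.08 of Thbs1. Cthrc1 lies within its SD of 2.49 of Postn and of Fn1. Postn and Fn1 lie further apart than their own SDs of 1.18 and 0.98. In resident Tcf21-traced cells the order began with Fstl1 (11.87) and Sparc (11.15), and Tgfbi came next at 3.32, within its SD of 3.96 of Thbs2 (3.02), Thbs1 (2.98) and Fn1 (2.48).

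Other genes of these families, taken from a list of 33, were listed for 27, and 25 were above 5 TPM in a cell. Of these, 6 were more than 2 log2 units higher (4.22% of all genes) and 3 lower (0.648%) in Postn-traced than in activated Postn-negative cells, with a median of 0.00 against 0.19 for all genes. Efemp2, the elastic-fibre protein fibulin 4, differed by 4.67, from 7.86 in traced to 3.18 in negative cells. Wisp2, a CCN protein, differed by 3.67 and Matn2, a matrilin, by 2.50. Of these 3 differences that of Efemp2 alone is larger than the SD of either class. Among genes above 5 TPM in at least 50% of the higher class, the largest negative differences were those of Smoc2 (-3.66) and Sparcl1 (-2.53), relatives of Sparc, and of Tnxb (-1.49), a tenascin, none larger than the SD between cells, and these 3 stayed negative when cells were centred. Smoc2 was above 5 TPM in 14 of 27 traced cells and in 17 of 17 resident Tcf21-traced cells, with means of 4.08 and 10.30. Sparcl1 was above it in 22 of 27 and 17 of 17, with means of 6.21 and 10.95, so the direction of both was opposite to that of Sparc. Against resident Tcf21-traced cells the list gave 7 higher (5.83% of all genes) and 2 lower (0.528%). In activated against resident Tcf21-traced cells it gave 5 higher (4.74%) and 2 lower (0.464%), and in activated against resident Postn-negative cells 3 and 1 (2.89% either way).

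Receptors for these proteins, from a list of 25 with 24 listed and 23 above 5 TPM in a cell, were taken next. None was more than 2 log2 units apart between Postn-traced and activated Postn-negative cells, beside 4.22% of all genes higher and 0.648% lower. A count of none among 23 genes is near these shares. The median difference was 0.47 against 0.19 for all genes. Integrin subunits Itgb5 (1.52), Itgav (1.38) and Itgb1 (1.11) had the largest positive differences among receptors above 5 TPM in at least 50% of the higher class, all smaller than the SD between cells. Ddr2, a collagen receptor, was at -1.75, Lrp1 at -0.55 and the syndecan Sdc2 at -0.53, and when cells were centred Lrp1 and Sdc2 came to -0.03 and 0.00 and Itgb5 passed 2, at 2.04. In Postn-traced against resident Tcf21-traced cells 3 receptors were higher (5.83% of all genes), and in activated against resident Tcf21-traced cells 6 (4.74%), with none lower. In activated against resident Postn-negative cells 1 was higher (2.89% of all genes either way).

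Genes whose class means ran most like those of a member were sought over the 8 groups of cells of 1 class and 1 capture with at least 6 cells, among 3415 genes. Fn1 ran most like Csrp2 (Pearson correlation 0.993), C1qtnf6 (0.985) and Slc35b2 (0.981). For Cthrc1 they were Phldb2 (0.983), Col3a1 (0.979) and Rab31 (0.977), and for Postn Vcl (0.976), Itgbl1 (0.975) and AK137033 (0.969). Tnc was nearest to Myl9 (0.954), Tlk1 (0.953) and Ube2l3 (0.951). The nearest to Tgfbi were Dusp1 (0.976), Terf1 (0.958) and Egr1 (0.945). Sparc was nearest to Csnk1a1 (0.986), Nsd1 (0.970) and Vcl (0.963), and Fstl1 to 9530068E07Rik (0.982), Tnk1 (0.974) and Plscr3 (0.971). For Thbs1 the genes were Setd8 (0.990), Ufc1 (0.972) and Lepre1 (0.963), and for Thbs2 Scamp3 (0.983), Sidt2 (0.960) and Hcfc1r1 (0.958). Spp1, which was under 50% of cells in every group, came with Psme4 (0.980), Eme1 (0.969) and Acot7 (0.968). With 8 points that share captures and differ in depth, these are descriptions only.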

How the data were processed

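The values used are those of the deposited table, log2(TPM+1) as the authors made it, in which 3 columns belong to no sample and were set aside. Per the submitters' processing notes, Bowtie 1.0.0, eXpress 1.5.1 and the mm10 build were used. Back on the linear scale each cell sums to between 999257 and 1000000, as TPM does. Classes were taken from the labels and captures from the cell names.

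Class means of the deposited values, shares above 5 TPM with exact 95% Clopper-Pearson intervals (counting error only) and differences of class means were computed, and a difference was counted when beyond 2 log2 units. No test was run. All 10 members are named, and from the lists of related genes and receptors the 3 largest positive and negative differences between Postn-traced and activated Postn-negative cells among genes above 5 TPM in at least 50% of the higher class. The 3 most alike genes are named for each member. Members and lists, including 7 marker lists, were chosen with earlier results of these data known. Cdh5 and Muc16 of the marker lists, Itgb6 of the receptors, and Spock1, Spock3, Ibsp, Dmp1, Mepe and Dspp are not listed.

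Alternatives were means over TPM, medians, pseudocounts of 0.1 and 5 in place of 1, centred cells, other minimums, call sizes and choices of cells, and no filter on genes. The code for the differences was tested on simulated data. Computation was in Python 3.11.15 with pandas 2.3.3 and NumPy 2.4.6, intervals came from SciPy 1.17.1, and figures were drawn in Matplotlib 3.10.9.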

Additional observations from a re-analysis of the deposited data

Results flagged for a closer look

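Infarct and uninjured hearts were compared in Tcf21-traced cells and in Postn-negative cells, and for 3 genes the differences had opposite signs. Those of the Postn-negative cells were near 0, at -0.21 for Postn, -0.38 for Cthrc1 and -0.26 for Thbs2, smaller than the SD between cells, and with other settings they reached 0 or changed sign. Subtracting the latter difference from the former gave 8.72 for Postn, 6.59 for Cthrc1 and 2.31 for Thbs2. These differences between the comparisons were not tested. Postn chose the labels of the Postn-negative cells and set the Postn-positive resident Tcf21 cells apart from the resident Tcf21-traced ones. The share of all genes with opposite signs was not taken, so the 3 genes are not shown to be unusual.

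Small classes outside the comparisons also held values above every resident Postn-negative or Tcf21-traced cell they were set against. The 1 resident cell labelled Postn-positive among the CD31- and CD45-negative cells had Postn at 13.13, Fn1 at 9.19 and Fstl1 at 13.56, where the highest resident Postn-negative cell had 2.87, 6.09 and 12.42. Tnc, Spp1 and Cthrc1 were listed at 0 in it. The 3 resident Tcf21-positive cells labelled Postn-positive had a Postn mean of 8.40, above 3.55, the highest resident Tcf21-traced cell, with Fn1 between 1.17 and 2.14. In the capture of the Postn-traced cells, the 6 untraced Postn-positive cells had a Postn mean of 10.37. The 3 untraced Postn-positive cells captured with the scar cells had means of 9.85 for Postn, 5.48 for Tnc and 13.31 for Sparc. The resident Tcf21-traced and Postn-negative classes reached 3.55, 0.66 and 12.69, without the resident cells labelled Postn-positive. Postn stands here by its labels, and none of these differences was tested. The share of all genes above every such resident cell was not taken, so these values are not shown to be particular to the members. The 3 untraced cells captured with the scar cells had a median of 5179 genes above 5 TPM. That median was 2264 in resident Tcf21-traced and 2091.5 in resident Postn-negative cells.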

How the results depend on the processing

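Of 720 member differences recomputed, 702 moved by less than the SD between cells, 17 moved by more, and 1 that had passed 2 log2 units changed sign. In cells with 2000 to 3000 genes, chosen after seeing the data, this was Thbs1, which in Postn-traced against resident Tcf21-traced cells was -0.81, with 5 and 11 cells. Fewer cells enter there, and the cause was not tested. Leaving out cells with fewer than 50% of the median gene number of their capture removed no cell from any comparison. Those recomputed differences therefore could not move. For resident Tcf21-traced against Postn-negative cells, at least 2000 genes and 2000 to 3000 genes gave the same 11 and 9 cells. The 702 are therefore a count and not a measure of stability. Counting from 1 log2 unit gave 8 members higher in Postn-traced than activated Postn-negative cells (16.7% of all genes), 9 in activated than resident Tcf21-traced cells (16.9%), 3 in activated than resident Postn-negative cells (10.3%), 1 in resident Tcf21-traced than Postn-negative cells (8.65%) and 4 lower in Tcf21-traced than untraced Postn-positive cells (5.05%). Counting from 3, members lower in Tcf21-traced cells were 0 against resident, 0 against untraced Postn-positive and 2 against Postn-traced cells (0.0826%, 0.0127% and 0.089%).

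Means over TPM made 1 member (Fn1) higher in activated than resident Postn-negative cells (20.2% of all genes) and 1 (Fn1) in resident Tcf21-traced than Postn-negative cells (17.6%). They made 1 (Spp1) higher (7.33%) and 2 lower (8.43%) in Tcf21-traced than Postn-traced cells, and 0 lower than in untraced Postn-positive cells (6.22%). With medians 0 were lower than in resident Tcf21-traced cells (0.864%), 1 was lower than in Postn-traced cells (3.39%), and against untraced Postn-positive cells 2 were lower (3.05%) and 1 (Cthrc1) higher (1.8%). A pseudocount of 5 left 0 lower against resident Tcf21-traced (0.191%) and 0 against untraced Postn-positive cells (0.0381%). In the latter, a pseudocount of 0.1 (2.09%), centring (0.731%), and cells with at least 2000 genes (0.4%) each gave 2 lower (Tnc and Thbs1), and cells with 2000 to 3000 genes gave 2 (Postn and Fn1, 3.99%). With 2000 to 3000 genes 4 members were higher in Postn-traced than resident Postn-negative cells (5.22%).

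Members in traced but not resident cells were 3 at 50 TPM (0.0763% of all genes), 0 at 75% of cells (0%) and 0 with 2000 to 3000 genes (0.146%). Shared members were 3 with at least 2000 genes and 3 with 2000 to 3000 (4.67%), 6 at 1 TPM (7.58%) and 6 at any value over 0 (12.1%). With at least 2000 genes the share of all genes was not taken. The causes were not tested. No paired analysis was possible because no label pairs cells across classes and no test was run. Each class is 1 sample, as cells cannot be assigned to mice, classes in different captures cannot be told apart from those captures, and values of 0 cannot be told from missed transcripts at the depth of a cell.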
